A study of Mus musculus with 2 samples.

Results

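Barrier proteases and their inhibitors were compared between the tooth and the skin of newborn wild-type mice. The members are 10 genes chosen by name: the proteases Asprv1, Casp14, Prss8, St14, Ctsc and Ctsl and the inhibitors Cst6, Spink5, Spint1 and Spint2. They were found by their gene name among the non-control spots of both arrays, and they are 10 of 24323 named genes. Total RNA from each tissue was hybridised to 1 Agilent whole-genome mouse expression array, and both arrays were on the same slide. The labels gave wild type and postnatal day 0 for each, with no agent or allele, while the age in the study's methods was 1 day more. By the study's methods wild-type animals were C57BL/6J, an inbred strain, and both samples were whole tissue, a tooth germ with its epithelium and mesenchyme and a skin with its hair follicles. The labels did not state how many animals contributed to an array. Since each tissue had a single array, animals could not be compared within a tissue, no test was run, and every difference below lacks a replicate check.

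The outermost layer of the skin is made by keratinocytes that flatten, cross-link their envelopes and die, and the resulting sheet is later shed. Proteases act at each step: matriptase (St14) and prostasin (Prss8) work at the cell surface, the aspartic protease Asprv1 and caspase 14 (Casp14) process filaggrin and its precursor, lysosomal cathepsins act inside the cell, and kallikreins cut the junctions that hold the sheet together. Several of these have inhibitors of their own. Spint1 and Spint2 are membrane-bound Kunitz inhibitors of matriptase and prostasin, Spink5 encodes a Kazal inhibitor of kallikreins that is lost in Netherton syndrome, and Cst6 encodes a cystatin that blocks cathepsin L and legumain. The tooth germ also has an epithelium, but its ameloblasts secrete enamel and do not cornify.

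The intensity is the background-corrected brightness of a probe on a linear scale. The level is the log2 of that intensity minus the 75th percentile of the same array, which was an intensity of 428 for tooth and 276 for skin. The difference is the skin level minus the tooth level of the same probe, so a positive value means more signal in skin, and a difference of 1 is 2-fold. The spot error is the error of a difference from the extraction software's error model for the spots, and it leaves out all variation between animals, dissections and labelling. Levels were not compared between probes, since probes differ in brightness for the same amount of RNA. The exception is the summed level of a marker list, in which brighter probes weigh more.

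By their brightest probe, all 10 members were well above background on both arrays, and none of their 14 probes was saturated. Among them, 7 passed 2-fold towards skin, none passed it towards tooth, and 3 lay within it. Of the 17409 named genes above background on at least 1 array, 14.2% passed 2-fold towards skin and 15.5% towards tooth (2466 and 2691 genes). Scaling by spike-in transcripts turned these counts into 1573 and 5639, and scaling by the median into 2020 and 3500, while 6 members towards skin and none towards tooth passed 2-fold under each. The differences of the 10 members had a median of 2.47 (log2), beside -0.04 for all 17409 genes. At least 16-fold higher in skin were 4 members, Asprv1, Casp14, Cst6 and Spink5, whereas 3.05% of all genes passed that fold. The 6 proteases had a median difference of 2.47 and the 4 inhibitors one of 3.27. In whole tissue, more cells of a type and more RNA per cell cannot be told apart.

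**Figure D1:**
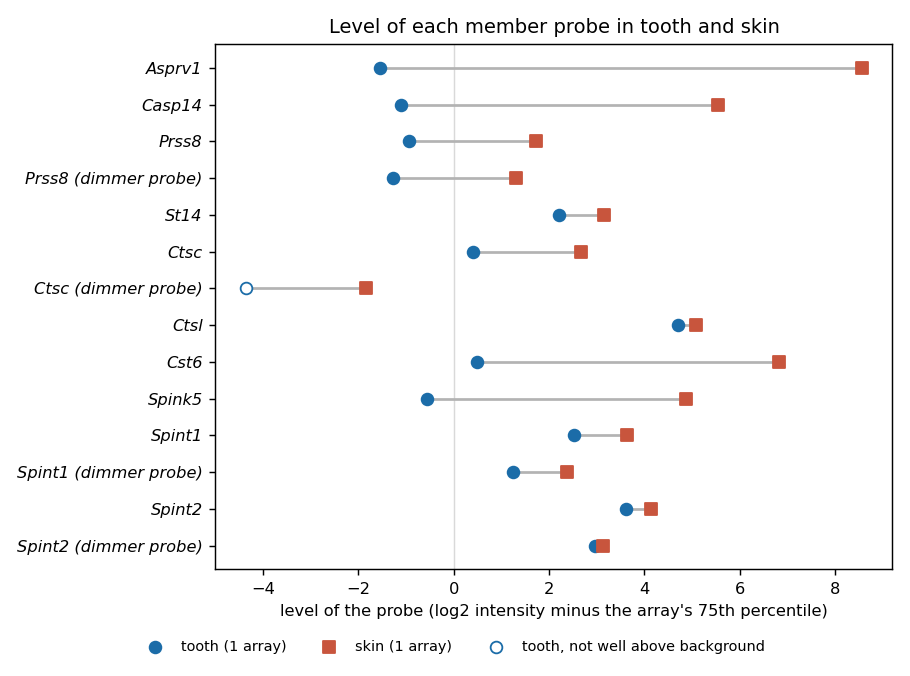
Level of each of the 14 member probes (log2 intensity minus the array's 75th percentile, x axis) in tooth (blue circles) and skin (red squares), with 1 array per tissue and a grey line joining the values of a probe. The open circle marks the dimmer Ctsc probe, which was not well above background in tooth. The lines of Asprv1, Casp14, Cst6 and Spink5 are the longest, and those of Ctsl and Spint2 are the shortest.

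Promoters of 4 members are shown, those of the proteases of the cornifying layer (Asprv1 and Casp14) and of the paired membrane inhibitors (Spint1 and Spint2). The promoter table used here, from RefSeq (GRCm38.p6), was matched for 6 of the 10 members, namely these 4, Ctsc and Ctsl. The 250 bases before the start site are printed on the gene's strand, in lower case, with capitals for matches on either strand to the GC box, whose letters are GGGCGG, or to the CCAAT box, which is named by its letters. The TATA box, here TATAAA, was searched likewise, and so was the AP-1 motif in the form TGANTCA. The windows are chr6:86627924-86628173 (plus strand) for Asprv1, chr10:78718294-78718543 (minus strand) for Casp14, chr2:119237110-119237359 (plus strand) for Spint1 and chr7:29281978-29282227 (minus strand) for Spint2.
Asprv1: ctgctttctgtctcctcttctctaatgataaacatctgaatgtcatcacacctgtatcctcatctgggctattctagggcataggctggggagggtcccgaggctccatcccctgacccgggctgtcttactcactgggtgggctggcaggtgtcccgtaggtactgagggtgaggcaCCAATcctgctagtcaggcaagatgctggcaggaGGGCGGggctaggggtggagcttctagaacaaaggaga
Casp14: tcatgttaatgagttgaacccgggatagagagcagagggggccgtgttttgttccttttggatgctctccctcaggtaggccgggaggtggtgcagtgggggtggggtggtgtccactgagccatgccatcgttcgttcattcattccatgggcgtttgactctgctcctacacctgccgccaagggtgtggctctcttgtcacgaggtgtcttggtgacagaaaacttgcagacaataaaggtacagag
Spint1: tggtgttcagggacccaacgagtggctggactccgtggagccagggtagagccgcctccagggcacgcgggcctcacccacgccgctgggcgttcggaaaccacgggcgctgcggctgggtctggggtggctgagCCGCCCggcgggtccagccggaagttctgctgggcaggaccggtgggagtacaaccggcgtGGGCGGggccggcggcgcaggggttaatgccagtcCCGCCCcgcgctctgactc
Spint2: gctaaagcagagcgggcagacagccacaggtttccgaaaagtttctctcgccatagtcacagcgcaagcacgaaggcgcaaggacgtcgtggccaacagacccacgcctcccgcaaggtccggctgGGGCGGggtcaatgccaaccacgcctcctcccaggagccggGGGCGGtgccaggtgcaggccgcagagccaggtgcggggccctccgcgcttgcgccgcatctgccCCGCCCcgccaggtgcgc

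The promoters of Spint1 and Spint2 each held 3 GC boxes, and that of Asprv1 held 1 GC box and 1 CCAAT box. The Ctsc promoter held 1 GC box. Casp14 and Ctsl had no match to any of the 4 motifs in this window. The Ctsl window ends in pyrimidine-rich letters and cag, as an intron does. Whether it lies before the main start site of Ctsl was not tested. Among 32851 promoters of the same length, 32.7% held a GC box, 33.8% a CCAAT box, 12.4% a TATA box and 6.7% an AP-1 motif. None of the 6 members held a TATA box or an AP-1 motif in these letters. The GC content was 72.8% for Spint1, 69.6% for Spint2, 60.4% for Ctsc, 56.4% for Asprv1 and 54.4% for Casp14. It was 47.2% for the Ctsl window. The median over all promoters was 52.4% with quartiles of 45.2% and 61.2%. A match is a description of letters and was not tested for binding.

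Among the proteases of the cornifying layer, the largest difference was that of Asprv1, which cuts the filaggrin precursor into its units. The Asprv1 probe (mm9, chr6:86579351-86579410, plus strand) had an intensity of 147 in tooth and 104150 in skin. Its level was -1.54 in tooth and 8.56 in skin. The difference was 10.10 ± 0.21 (log2, spot error) or 1096-fold. It ranked 6 from the top among the differences of the 15271 genes measured on both arrays. Casp14, a caspase of the cornified layer that takes part in the breakdown of filaggrin and not in cell death signalling, was measured at chr10:78174761-78174820 (minus strand), with an intensity of 200 in tooth and 12841 in skin. Its level was -1.10 in tooth and 5.54 in skin. The difference was 6.64 ± 0.21 or 99.5-fold, at rank 69. Asprv1 and Casp14 thus both had low signal in tooth that was still well above background. The difference of Asprv1 exceeded that of Casp14 by 3.46 ± 0.29 (log2, spot error), a gap that no constant shift of an array can alter.

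The substrates and targets of all these proteases were taken as 1 list, which holds filaggrin and its relatives, junction proteins, transglutaminases, a receptor and sodium channel subunits. Of the 13 above background, 9 passed 2-fold towards skin and none towards tooth, with a median difference of 3.73. However, 4 of the 13 were well above background in skin only. With detection required on both arrays, 5 of 9 passed towards skin, with a median of 2.26. Filaggrin (Flg) had a level of -3.21 in tooth and 9.69 in skin. Its difference of 12.89 exceeded that of Asprv1 by 2.80 ± 0.32. The related proteins filaggrin 2 (Flg2) and hornerin (Hrnr) were well above background in skin only, at least 732-fold and at least 1529-fold higher there. The enzymes that modify filaggrin and degrade it beside Casp14 had smaller differences, with a median of 1.48 over 4 genes. Padi3, a peptidylarginine deiminase, had a difference of 2.79, bleomycin hydrolase (Blmh) 1.96, and Padi1 0.40. Calpain 1 (Capn1) lay just under the 2-fold threshold.

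Other caspases did not share the difference of Casp14. Of the 8 other caspases above background, 1 was at least 2-fold higher in skin, namely Casp1 at 1.18, and none was at least 2-fold higher in tooth. Over all genes 14.2% passed towards skin and 15.5% towards tooth. The differences of the 8 caspases ran from -0.93 for Casp6 to that of Casp1, with a median of 0.12. After spike-in scaling none of them was at least 2-fold higher in skin and 2 were at least 2-fold higher in tooth, with a median of -0.50. Caspases 3, 7 and 9, which carry out or start cell death, had differences of -0.04, -0.49 and -0.32.

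**Figure D2:**
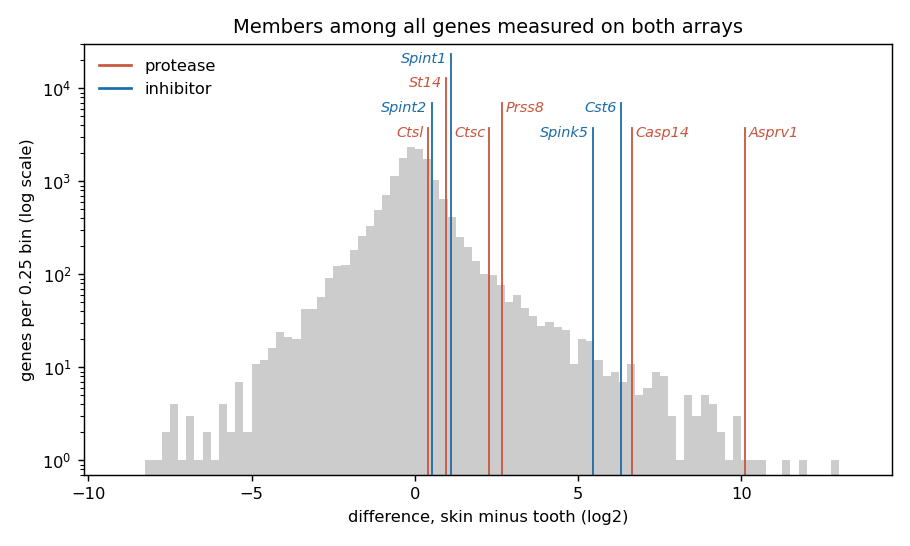
Distribution of the difference, skin minus tooth (log2, x axis), over the 15271 genes measured on both arrays, with the number of genes per bin on a log scale (y axis). Vertical lines mark the 6 proteases (red) and the 4 inhibitors (blue) by their brightest probe. Asprv1, Casp14, Cst6 and Spink5 lie far to the right, and Ctsl, Spint2, St14 and Spint1 lie within or beside the main peak.

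The matriptase and prostasin pair and its inhibitors had smaller differences. Prss8 encodes prostasin, which is anchored to the cell membrane at the cell surface and lies in a proteolytic cascade with matriptase. Its brightest probe, at chr7:135069848-135069907 (mm9, minus strand), had an intensity of 223 in tooth and 914 in skin, and a level of -0.94 and 1.73. The difference was 2.67 ± 0.21 (6.36-fold, rank 491). The other Prss8 probe, at chr7:135069232-135069291, gave 2.59, from -1.28 in tooth and 1.31 in skin, so both probes placed skin above tooth by about the same amount.

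St14 encodes matriptase, a transmembrane serine protease, and its probe lay at chr9:30897249-30897308 (mm9, minus strand). Its intensity was 1980 in tooth and 2473 in skin, and its level was 2.21 in tooth and 3.16 in skin. The difference was 0.95 ± 0.20 (1.94-fold), just short of 2-fold, and it lay at percentile 85.2 of the 17409 genes. The difference of Prss8 exceeded that of St14 by 1.72 ± 0.29.

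Spint1 and Spint2 each carry Kunitz domains and restrain matriptase at the membrane. Spint1, measured at chr2:119074929-119074988 (mm9, plus strand), had an intensity of 2461 in tooth and 3408 in skin, and a level of 2.52 and 3.63. Its difference was 1.10 ± 0.20 (2.15-fold), which lay just above 2-fold, and its other probe gave 1.13 from levels of 1.24 and 2.37. Spint2, measured at chr7:30066532-30066591 (minus strand), had an intensity of 5269 in tooth and 4855 in skin, and a level of 3.62 and 4.14. Its difference was 0.51 ± 0.20 (1.43-fold). The other Spint2 probe, designed to another transcript at chr7:30041332-30041381, gave 0.17 from levels of 2.97 and 3.14. For Spint2 the unscaled intensity was thus higher in tooth and the scaled level higher in skin, and scaling to spike-in transcripts gave a difference of -0.11. St14 and Spint1 had differences that lay 0.15 apart, inside the spot error of 0.29 for their gap. The gap between Spint1 and Spint2 was 0.59 ± 0.29, and between St14 and Spint2 it was 0.44 ± 0.29. Among 3241 genes with exactly 2 probes measured on both arrays, the differences given by the probes of a gene lay 0.26 apart at the median and 0.94 at the 90th percentile, so gaps of this size are within what different probes of a single gene gave.

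Known targets of this cascade were mixed. The epithelial sodium channel is activated by prostasin, and its subunit Scnn1a had a difference of 4.01, from -1.77 in tooth to 2.25 in skin. Scnn1b had a difference of -0.77, and Scnn1g was too dim to measure in both tissues. Epcam and Cldn7, which are cleaved or destabilised when Spint2 is lacking in gut epithelium, had differences of 0.66 and 0.35. The protease-activated receptor F2rl1 was well above background in skin only, at least 2.37-fold higher there. The related membrane proteases Tmprss4 and Tmprss13 had differences of 7.63 and 3.53. Furin, a ubiquitous proprotein convertase, had a difference of -0.03.

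Spink5 encodes a multi-domain inhibitor that holds kallikreins inactive until the outermost layer, and its probe lay at chr18:44181579-44181638 (mm9, plus strand). Its intensity was 290 in tooth and 8124 in skin, and its level was -0.56 in tooth and 4.88 in skin. The difference was 5.44 ± 0.21 (43.4-fold, rank 113). Among the secreted and membrane serine proteases in a list made for comparison, 15 of 16 were above background on at least 1 array. Of these 15, 11 passed 2-fold towards skin and none towards tooth, with a median of 3.53. However, 4 of the 15 were well above background in skin only and so entered through that tissue. With detection required on both arrays, 7 of 11 passed towards skin, with a median of 1.8. The main targets of Spink5, kallikreins 5 and 7, were well above background in skin only: Klk5 was at least 2011-fold and Klk7 at least 361-fold higher in skin. Klk14, another target, was too dim to measure in both tissues. Klk6 was at least 97.2-fold higher in skin, and the differences of Klk13, Klk11, Klk8 and Klk10 were 5.12, 4.57, 3.43 and 1.29. Klk8, measured on both arrays, had a level of 1.11 in tooth and 4.54 in skin, and the difference of Spink5 exceeded its difference by 2.01 ± 0.29. Corneodesmosin (Cdsn) and desmoglein 1 alpha (Dsg1a), junction proteins that kallikreins cut, had differences of 8.95 and 3.73. Desmocollin 1 (Dsc1) was at least 199-fold higher in skin.

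Cst6, the cystatin whose loss in mice gives a scaling skin disorder, was measured at chr19:5347982-5348041 (mm9, minus strand), with an intensity of 604 in tooth and 31156 in skin. Its level was 0.50 in tooth and 6.82 in skin, and the difference was 6.32 ± 0.20 (79.9-fold, rank 79). Its target Ctsl, a lysosomal cysteine protease measured at chr13:64465287-64465346 (minus strand), had an intensity of 11094 in tooth and 9366 in skin. The Ctsl level was 4.70 in tooth and 5.08 in skin, and the difference was 0.39 ± 0.20 (1.31-fold). By the brightest probe it was the smallest among the 10 members. With the mean of all probes Spint2 had a smaller difference, 0.34. As for Spint2, the unscaled intensity of Ctsl was higher in tooth, and spike-in scaling gave a difference of -0.24. The difference of the inhibitor exceeded that of its target protease by 5.93 ± 0.29. Legumain (Lgmn), the other target of Cst6, had a difference of -0.86, from 4.16 in tooth to 3.30 in skin. Transglutaminase 3 (Tgm3), an envelope enzyme that cathepsin L activates, had a difference of 0.10 by its brightest probe, whereas its other probe stood above background just in skin, with levels of -4.67 and 0.95, so its probes disagreed. Transglutaminase 1 (Tgm1) had a difference of 2.26.

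Ctsc encodes a dipeptidyl peptidase that activates the serine proteases of immune cell granules, and its loss in people causes thickened palms and early tooth loss. Its brightest probe, at chr7:95458436-95458495 (mm9, plus strand), had an intensity of 565 in tooth and 1767 in skin, and a level of 0.40 and 2.68. The difference was 2.28 ± 0.20 (4.84-fold, rank 617). The dimmer Ctsc probe, designed to another transcript at chr7:95435428-95435487, was not well above background in tooth and gave at least 5.70-fold higher signal in skin. Of the 7 granule serine proteases above background, 4 passed 2-fold towards skin and none towards tooth, with a median difference of 1.40. Spike-in scaling left 2 towards skin and 2 towards tooth. With detection required on both arrays, 2 of 4 passed towards skin, with a median of 0.74. The mast cell chymase Cma1 was at least 16.7-fold higher in skin, and the mast cell proteases Mcpt4 and Tpsb2 had differences of 1.80 and 1.55. Granzyme A (Gzma) was at least 2.64-fold higher in skin. The neutrophil proteases Elane and Ctsg had differences of -0.06 and -0.41. Prtn3, well above background in tooth only, had a difference of -0.79. In skin Elane had a level of 2.78, while Prtn3 and the neutrophil markers Mpo and Ngp were at background.

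Other cathepsins and legumain had differences of both signs. Of 12 above background, 4 were at least 2-fold higher in skin, 2 at least 2-fold higher in tooth and 6 within 2-fold, with a median difference of 0.57. Over all genes 14.2% passed towards skin and 15.5% towards tooth. Under spike-in scaling 1 of the 12 passed 2-fold towards skin and 4 towards tooth, and their median was -0.05. The count towards skin was 3 under normexp, median scaling, quantile normalization and the mean of all probes. The aspartic protease Ctse had a difference of 3.70. Its relative Ctsd lay just above 2-fold by its brightest probe, and the other Ctsd probe gave 0.57. Ctsh and Ctsa had differences of 1.54 and 1.44. Cathepsin K (Ctsk), the collagen-degrading protease of osteoclasts, had a difference of -4.89, from 6.08 in tooth to 1.19 in skin. Ctsz had a difference of -1.51. Ctsb, a widely expressed lysosomal protease like Ctsl, had a difference of -0.40.

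Inhibitors of the same families as the members had differences of both signs as well. Of 23 listed, 17 were above background, of which 10 passed 2-fold towards skin and 4 towards tooth, with a median of 1.10. The 4 include Spink10, which was at background in skin and has no bound, and 3 passed with dim values at their bound. Spike-in scaling gave 7 towards skin and 5 towards tooth, with a median of 0.48. Normexp gave 7 and 3, with a median of 0.7. Over all genes 14.2% passed towards skin and 15.5% towards tooth. The stefin A genes, cystatins of the cell interior, had differences of 9.04 for Stfa3, 7.45 for Stfa1 and 4.58 for Stfa2, although these are close paralogs whose probes may share signal. Cstb had a difference of 1.04 and Cst3, a secreted cystatin of many tissues, one of -0.64. The WAP-domain inhibitors ran both ways: Wfdc5 and Wfdc12 were at least 33.9-fold and at least 11.6-fold higher in skin, whereas Wfdc2, Slpi and Wfdc1 had differences of -4.70, -2.26 and -2.13.

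**Figure D3:**
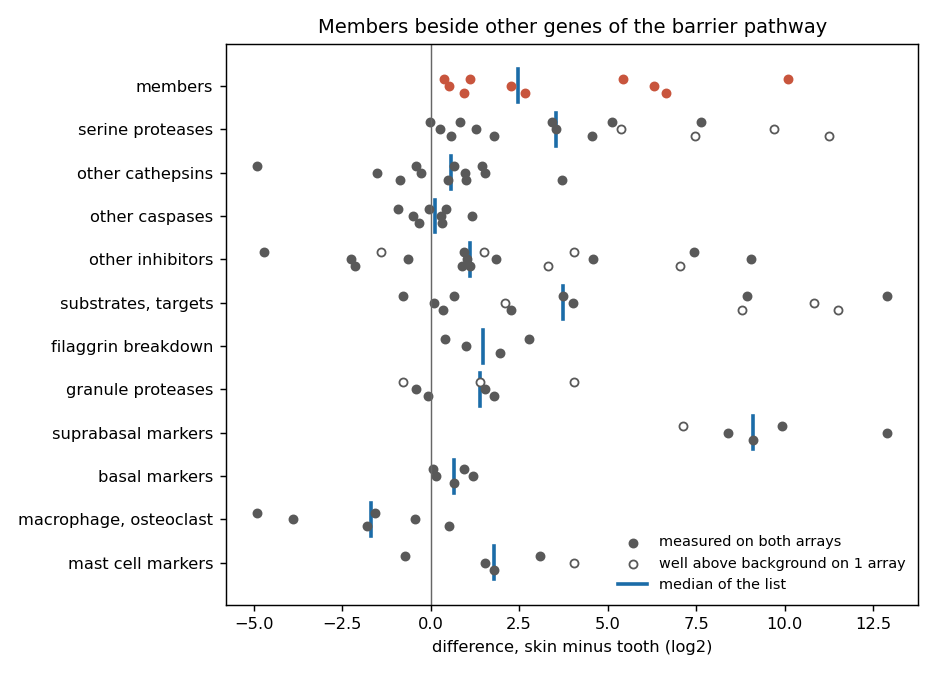
Difference, skin minus tooth (log2, x axis), of the 10 members (red) and of the genes in each comparison and marker list (grey), 1 point per gene by its brightest probe, with the list's median as a blue bar. Open points were well above background on only 1 array, so their differences depend on a value near background. The members span the range from the basal epithelial markers to the suprabasal markers.

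Marker genes of the cells that the tissues could hold were compared in the same way. Some are also in the comparison lists, so these lists are not separate observations. Flg and Epcam are among the substrates and targets, and Ctsk is among the cathepsins. Cma1, Mcpt4, Tpsb2, Elane and Prtn3 are among the granule serine proteases. All 5 markers of the suprabasal epidermis (Krt1, Krt10, Lor, Flg and Ivl) were at least 16-fold higher in skin, with a median difference of 9.11. The 4 measured in both tissues had differences between 8.39 and 12.89, and Ivl, at background in tooth, was at least 92.2-fold higher in skin. Their summed level on the linear scale, in units of the array's 75th percentile, was 6.0 in tooth and 3760 in skin. The 5 basal epithelial markers (Krt5, Krt14, Trp63, Cdh1 and Epcam) had differences between 0.06 and 1.19 with a median of 0.66, and a summed level of 551 in tooth and 1061 in skin. St14, Spint1, Spint2 and Ctsl had differences inside the range of the basal markers, and Asprv1 had one inside the range of the 4 suprabasal markers measured in both tissues. The differences of Casp14, Cst6, Spink5, Prss8 and Ctsc lay above the basal range and below those of these 4 markers.

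Other cell types were also unequal between the arrays. All 4 ameloblast markers (Amelx, Ambn, Enam and Mmp20) and all 3 odontoblast markers (Dspp, Dmp1 and Phex) were well above background in tooth only, so each tissue label went with its defining genes. Of 6 macrophage and osteoclast markers (Cd68, Csf1r, Adgre1, Lyz2, Acp5 and Ctsk), all measured in both tissues, 4 were at least 2-fold higher in tooth and none in skin. Ctsk and Acp5 had differences of -4.89 and -3.88, Cd68 and Lyz2 of -1.79 and -1.58. Csf1r and Adgre1 lay within 2-fold, at -0.43 and 0.52. The summed level was 320 in tooth and 34.8 in skin. Acp5 and Ctsk weighed most in the tooth sum, with tooth levels of 7.82 and 6.08. Of 5 mast cell markers (Cpa3, Cma1, Mcpt4, Tpsb2 and Kit), of which Cma1 alone was at background in tooth, 4 were at least 2-fold higher in skin. Kit had a difference of -0.71. The summed level was 3.31 in tooth and 5.28 in skin, and Kit, at a level of 1.29, weighed most in the tooth sum. All 4 neutrophil markers (Mpo, Elane, Prtn3 and Ngp) but Elane were at background in skin, and their summed level was 9.65 in tooth and 6.95 in skin. Elane, with levels of 2.84 in tooth and 2.78 in skin, weighed most in both sums. For Mpo the signal in tooth was at least 30.1-fold higher. The part of cell makeup in the differences of the members was not tested.

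The sizes of the differences depended on the scaling. Over 9 other ways of processing, of which 3 add a constant to every difference and 3 alter the handling of dim probes alone, the difference of Asprv1 ran from 9.48 to 10.12, that of Casp14 from 6.01 to 6.66, that of Cst6 from 5.70 to 6.34 and that of Spink5 from 4.82 to 5.46. Prss8 ran from 2.05 to 2.69 and Ctsc from 1.65 to 2.39, so these 6 members stayed at least 2-fold higher in skin under each of them. Spint1 ran from 0.48 to 1.12 and fell under 2-fold when the arrays were scaled by their median or by the spike-ins. St14 ran from 0.33 to 0.98. Scaling by 8 spike-in transcripts moved the median of all genes by -0.63 (log2).

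**Figure D4:**
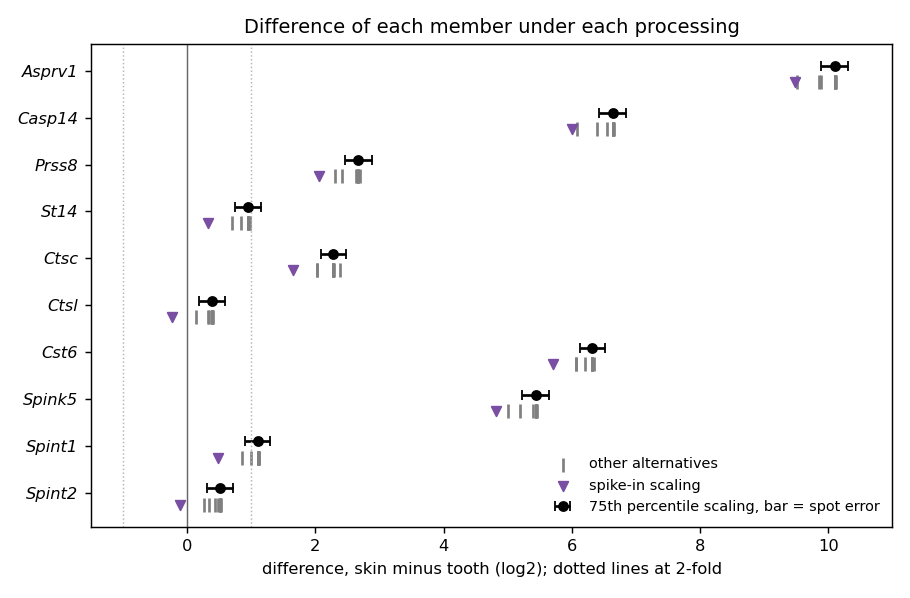
Difference, skin minus tooth (log2, x axis), of each member by its brightest probe. Black points with bars give the value after scaling to the 75th percentile with its spot error, grey ticks the other ways of processing, and purple triangles scaling by spike-in transcripts. Only Spint2 and Ctsl cross 0, under spike-in scaling, at -0.11 and -0.24.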

How the data were processed

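Total RNA of 1 tooth and 1 skin sample was labelled with a single dye and hybridised to Agilent arrays. The deposited spot intensities came from Feature Extraction (version 10.7.3.1), which per the file headers had subtracted background, removed trends and replaced very dim values by surrogates (25.0% of spots in tooth, 27.7% in skin). The authors also deposited a table in which each value is a ratio of that intensity to 1 factor per array, on a linear scale.

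Outlier spots were dropped, spots of a probe were averaged as log2 values, and the 75th percentile over the 55675 probes was subtracted. Detection needed over 50% of spots called well above background (56.7% of probes in tooth, 52.5% in skin). A gene dim on 1 array was given as a bound against the lowest detected level there (-4.52 in tooth, -3.73 in skin) or its own value if higher. The brightest probe stood for a gene. Names came from RefSeq (GRCm38.p6) for 27235 of 33184 named probes, otherwise from the array. Probe positions (mm9, per the file headers) were not annotated. The SD of a difference from replicate spots was 0.12, covering bright probes only, and the number of arrays limits the precision. The steps were tested on simulated data. Python (3.11.15), numpy (2.4.6), pandas (2.3.3) and, for normexp alone, limma (3.58.1) in R (4.3.3) were used. Named genes were all members and any gene of the comparison and marker lists. Members and lists were chosen with earlier results of these data known. The alternatives were normexp background correction, median and spike-in scaling, quantile normalization, the deposited ratio table, the mean of all probes, detection on both arrays, no detection filter and dim values at their bound.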

Additional observations from a re-analysis of the deposited data

How the results depend on the processing

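The median difference of the 10 members was 2.47 (log2), and it was 2.17 after normexp background correction, 2.22 after scaling by the median and 1.85 after scaling by spike-in transcripts. Under the other 6 alternatives it differed by less than the scatter of replicate spots. The number of members at least 2-fold higher in skin was 7, and 6 under median and spike-in scaling, where Spint1 lay under the threshold. No member was at least 2-fold higher in tooth under any of the 9 alternatives. Spint2 and Ctsl changed sign under spike-in scaling, to -0.11 and -0.24, and neither had passed 2-fold. The median of all genes moved by -0.63 under spike-in scaling, -0.25 under median scaling and 0.22 without a detection filter.

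The same alternatives were applied to the comparison lists after the data were seen. With spike-in scaling the genes that passed 2-fold towards skin and towards tooth were 1 and 4 among the other cathepsins and legumain (4 and 2 before). They were 0 and 2 among other caspases (1 and 0), and 2 and 2 among granule serine proteases (4 and 0). Among other inhibitors they were 7 and 5 (10 and 4), and 1 substrate or target passed towards tooth (0). With normexp the other inhibitors had 7 and 3. With median scaling other caspases had 0 and 1, and 1 granule protease and 1 substrate or target passed towards tooth. Quantile normalization put 1 granule protease there. With dim values at their bound, 3 other inhibitors in place of 4 passed towards tooth, and of all genes 2435 passed towards skin and 2316 towards tooth. When a gene had to be above background on both arrays, fewer genes remained. Those at least 2-fold higher in skin were 7 of 11 serine proteases (11 of 15 before) and 6 of 12 other inhibitors (10 of 17). They were 5 of 9 substrates and targets (9 of 13) and 2 of 4 granule proteases (4 of 7). The medians of these lists were then 1.8, 0.99, 2.26 and 0.74, in place of 3.53, 1.10, 3.73 and 1.40.

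No paired analysis was possible because each tissue has 1 array, and leaving out an array would leave none for that tissue. Surrogate values limit the order of dim probes, so the folds of genes detected on 1 array are bounds.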
